A study of Mus musculus with 4 samples.

Results

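The ligands TGF-beta 1, 2 and 3, the 4 latent TGF-beta binding proteins (LTBPs) and the 3 TGF-beta receptors are described here in rib chondrocytes of mice that carry a *Matn3* mutation, lack XBP1 in cartilage, or both. All probe sets that an annotation of the array assigns to *Tgfb1*, *Tgfb2*, *Tgfb3*, *Ltbp1*, *Ltbp2*, *Ltbp3*, *Ltbp4*, *Tgfbr1*, *Tgfbr2* or *Tgfbr3* were taken, which gave 24 probe sets of 10 genes, out of 34945 probe sets that name 1 gene and 18193 genes in all. None of the 24 names a further gene. RNA was hybridized to 1 Affymetrix 3' expression array per genotype, and each RNA was a pool of 3 extractions from collagenase-digested costal cartilage of litters aged 5 days. The double mutant chondrocytes carry the V194D change in matrilin-3 and a deletion of exon 2 of *Xbp1*, which was made by a Cre recombinase under the *Col2a1* promoter and is therefore limited to cells in which that promoter is active. The *Matn3* mutant chondrocytes carry V194D with wild type *Xbp1*, the XBP1 null chondrocytes carry the *Xbp1* deletion with wild type *Matn3*, and the wild type chondrocytes carry neither. All 4 lines were on the C57BL6/J background, and whether wild type mice carried the Cre transgene or a floxed allele was not stated. With 1 array per genotype a difference between a pair of arrays has no replicate error and no test.

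TGF-beta is secreted as a latent complex, in which the mature dimer is held by its own propeptide and the propeptide is usually bound to an LTBP. LTBPs anchor this complex in the extracellular matrix, on fibrillin and fibronectin fibres, until the ligand is released by integrins or proteases. The free ligand binds the type II receptor TGFBR2, which recruits and phosphorylates the type I receptor TGFBR1, and TGFBR1 phosphorylates SMAD2 and SMAD3. TGFBR3, or betaglycan, presents the ligand to the signalling receptors and is needed most for TGF-beta 2. In growth plate cartilage this pathway is known for holding back the terminal differentiation of chondrocytes.

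The array medians were 43.8 in all 4 genotypes, and between 8.36% and 10.9% of signals lay below 1. *Matn3* signals were 10572 in double mutant, 10462 in *Matn3* mutant, 9945 in XBP1 null and 10185 in wild type chondrocytes, and *Xbp1* signals on its brightest probe set were 9548, 11403, 7877 and 8183 in the same genotypes. Neither checks the labels, since the arrays do not read the *Matn3* base change and the position of the *Xbp1* probes relative to exon 2 was not analysed. *Col2a1*, which encodes collagen II, had signals of 13571 in double mutant, 13380 in *Matn3* mutant, 13435 in XBP1 null and 10187 in wild type chondrocytes. Of 13 chondrocyte markers, *Col2a1* among them, none exceeded 1.5-fold upwards in the 4 comparisons, and *Matn1*, which encodes matrilin-1, was 1.76-fold lower in *Matn3* mutant relative to wild type and 1.52-fold lower in double mutant relative to XBP1 null chondrocytes, and the 13 together had a summed signal of 140232 to 164733. Markers of other cells differed more widely. All 12 endothelial markers were over 1.5-fold higher in XBP1 null relative to wild type chondrocytes. In *Matn3* mutant relative to wild type chondrocytes 9 of the 12 were higher and 1 lower. Their summed signal was 1091 in double mutant, 716 in *Matn3* mutant, 5239 in XBP1 null and 286 in wild type chondrocytes. Of these 12 markers, 2, 2, 0 and 4 were below the 25th percentile of all signals in the same genotypes. Markers of perichondrium and fibroblasts were over 1.5-fold higher in XBP1 null relative to wild type chondrocytes for 6 of 11 genes, and over 1.5-fold lower in *Matn3* mutant relative to wild type chondrocytes for 4 of 11, with summed signals of 63713, 46158, 73642 and 52462 in the same genotypes. In those comparisons, XBP1 null against wild type and *Matn3* mutant against wild type, smooth muscle and pericyte markers were higher for 6 and 3 of 8 genes and lower for 0 and 1. The osteoblast list had 5 and 1 of 5 genes higher and 0 and 3 lower, skeletal muscle 8 and 1 of 9 higher and 0 and 6 lower, and hypertrophic chondrocyte markers 3 and 1 of 6 higher and 2 and 4 lower. Only 3 of the 9 skeletal muscle genes were at or above the median intensity. The summed signal of the 9 was 2793 in double mutant, 2001 in *Matn3* mutant, 2668 in XBP1 null and 3165 in wild type chondrocytes. Most of it was *Tnnt3*, with 2406, 1829, 1906 and 2780 in the same genotypes. *Tnnt3* was 1.46-fold lower in XBP1 null relative to wild type chondrocytes, whereas the 8 genes counted above were higher. Leukocyte markers were higher for 4 of 10 and lower for 2 in both comparisons, and of 3 erythroid genes 1 and 0 were higher and 0 and 2 lower. Over all genes, 23.3% were over 1.5-fold higher and 11.5% lower in XBP1 null relative to wild type chondrocytes. In *Matn3* mutant relative to wild type chondrocytes 21.2% were higher and 19.3% lower. The 3 Y-linked genes measured had a summed signal of 1448 in double mutant, 2.58 in *Matn3* mutant, 1110 in XBP1 null and 770 in wild type chondrocytes. On the *Matn3* mutant array all 3 were below the 25th percentile of all signals, so it also stands apart in these genes, which only males carry. The part of the cell types and of the Y-linked difference in the values below was not tested. In comparisons with the *Matn3* mutant array, a difference in the sex of the pooled mice cannot be told apart from one of genotype. In cells prepared from tissue, more cells of a type and more RNA per cell cannot be told apart.

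Each gene is given by its brightest probe set, that with the highest mean log2 signal over the 4 arrays, and signals below 1 were set to 1 before log2 was taken. The 10 representing probe sets all lay at or above the median intensity of the array. In *Matn3* mutant relative to wild type chondrocytes, *Tgfb2*, *Ltbp1* and *Tgfbr2* were over 1.5-fold higher, *Tgfb3* and *Ltbp4* were over 1.5-fold lower, and 5 genes lay within that limit. Over all 18193 genes 21.2% were higher and 19.3% lower by that much, and among the 10982 genes at or above the median intensity 13.2% were higher and 17.6% lower. In XBP1 null relative to wild type chondrocytes, *Ltbp1*, *Tgfbr1* and *Tgfbr2* were over 1.5-fold higher and *Tgfb1* was lower, against 23.3% higher and 11.5% lower of all genes and 18.8% and 5.82% of genes at or above the median. In double mutant relative to *Matn3* mutant chondrocytes none of the 10 was higher, and *Tgfb2* and *Ltbp1* were lower, against 17.4% higher and 9.03% lower of all genes and 11.9% and 3% above the median. In double mutant relative to XBP1 null chondrocytes none was higher, and *Tgfb3* and *Ltbp1* were lower, against 16.6% higher and 16.9% lower of all genes and 7.38% and 10.5% above the median. *Ltbp1* was therefore past 1.5-fold in all 4 comparisons, though by a narrow margin in double mutant relative to *Matn3* mutant chondrocytes. The median log2 difference of the 10 genes was 0.13 in *Matn3* mutant and 0.25 in XBP1 null relative to wild type chondrocytes, 0.24 in double mutant relative to *Matn3* mutant and -0.19 in double mutant relative to XBP1 null chondrocytes. The corresponding medians of all genes at or above the median intensity were -0.08, 0.10, 0.19 and -0.01. With 10 genes, 1 gene more or less moves a share by 10 percentage points. The first and second comparisons share the wild type array, and each mutant array likewise enters a pair of comparisons, so these counts are not independent of each other.

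**Figure D1:**
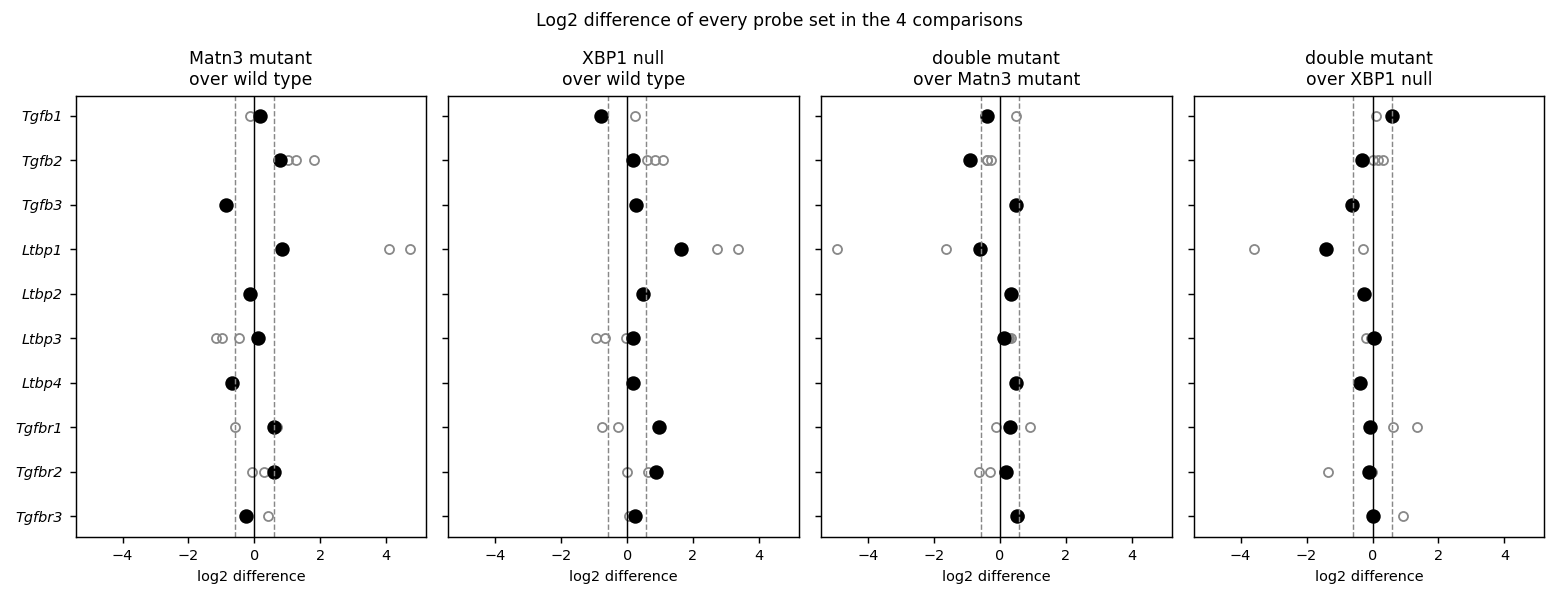
Log2 difference (horizontal axis) of every probe set of the 10 genes (rows) in the 4 comparisons of single arrays. Filled points are the brightest probe set of a gene, open points its other probe sets, and dashed lines mark 1.5-fold. The probe sets of *Tgfb2* and *Ltbp1* all lie above 0 in both comparisons with wild type. Those of *Tgfb1*, *Ltbp3*, *Tgfbr1* and *Tgfbr2* lie on both sides of 0 in both of these.

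*Tgfb2* was the ligand with the most uniform difference. Its brightest probe set (1423250_a_at) had signals of 2033 in double mutant, 3788 in *Matn3* mutant, 2524 in XBP1 null and 2211 in wild type chondrocytes. The second (1450923_at) had 2864, 3435, 2577 and 1424 in the same genotypes, and the others had 2099, 2765, 2093 and 1374 (1450922_a_at) and 571, 745, 460 and 214 (1438303_at). On all 4 probe sets the *Matn3* mutant array was the highest, and on 3 of them wild type was the lowest. In *Matn3* mutant relative to wild type chondrocytes the 4 probe sets were 1.71-fold, 2.41-fold, 2.01-fold and 3.48-fold higher. In XBP1 null relative to wild type chondrocytes they were 1.14-fold, 1.81-fold, 1.52-fold and 2.15-fold higher, so that the brightest was the one within 1.5-fold. In double mutant relative to *Matn3* mutant chondrocytes all 4 were lower, by 1.86-fold on the brightest and by 1.20-fold to 1.32-fold on the others. The double mutant and XBP1 null arrays were close, with log2 differences of -0.31 to 0.31. On each probe set the double mutant signal was below the sum of the separate log2 differences of the *Matn3* mutation and of XBP1 loss, by 1.01 to 1.49 on the log2 scale.

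The promoter of *Tgfb2* is shown because its probe sets differ together, and those of *Ltbp1*, for the same reason, and of *Tgfbr1* and *Tgfbr2*, whose brightest probe sets have a like pattern, stand beside their values. Windows of 250 bases before to 50 bases after the annotated start were taken from RefSeq (GRCm38.p6), with 12 windows of 8 members matched and *Tgfb3* and *Tgfbr3* not matched. Capitals mark matches on either strand to the letters of 7 motifs. These were the GC box GGGCGG (in 35.7% of all 32851 windows of this length), the box CCAAT (37.4%), the SMAD box CAGAC (49.6%), the cAMP response element TGACGTCA (1.79%), the core TGACGTGG of the unfolded protein response element that XBP1 binds (0.676%), the shorter sequence CCACG within that core (32.8%) and the AP-1 site TGANTCA (7.81%). A match describes letters and not a site that is used. The *Tgfb2* window (chr1:186705940-186706239, minus strand) held 1 CCAAT box, 2 SMAD boxes and 2 CCACG matches.
*Tgfb2*: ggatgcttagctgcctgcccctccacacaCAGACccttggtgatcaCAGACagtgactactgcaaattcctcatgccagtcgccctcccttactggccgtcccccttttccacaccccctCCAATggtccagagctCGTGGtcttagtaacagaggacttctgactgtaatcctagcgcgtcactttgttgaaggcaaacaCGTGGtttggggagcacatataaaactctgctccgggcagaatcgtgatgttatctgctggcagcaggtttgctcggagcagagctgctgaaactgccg

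*Tgfb3* differed the other way in the *Matn3* mutant. Its 1 probe set (1417455_at) had signals of 527 in double mutant, 378 in *Matn3* mutant, 817 in XBP1 null and 685 in wild type chondrocytes. The arrays with the *Matn3* mutation were both below those without it. The signal was 1.81-fold lower in *Matn3* mutant relative to wild type and 1.55-fold lower in double mutant relative to XBP1 null chondrocytes. It was 1.19-fold higher in XBP1 null relative to wild type and 1.39-fold higher in double mutant relative to *Matn3* mutant chondrocytes.

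*Tgfb1* gave no common direction. Its brightest probe set (1445360_at) had signals of 147 in double mutant, 191 in *Matn3* mutant, 98.3 in XBP1 null and 170 in wild type chondrocytes, and was 1.73-fold lower in XBP1 null relative to wild type chondrocytes. The other probe set (1420653_at), of nearly equal intensity, had 167, 119, 155 and 131 in the same genotypes, and was 1.18-fold higher in that comparison. The pair also differed in sign in the other comparisons except double mutant against XBP1 null, where they were 0.58 and 0.11 higher on the log2 scale. The lower value of *Tgfb1* in XBP1 null chondrocytes thus rests on 1 of 2 probe sets.

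**Figure D2:**
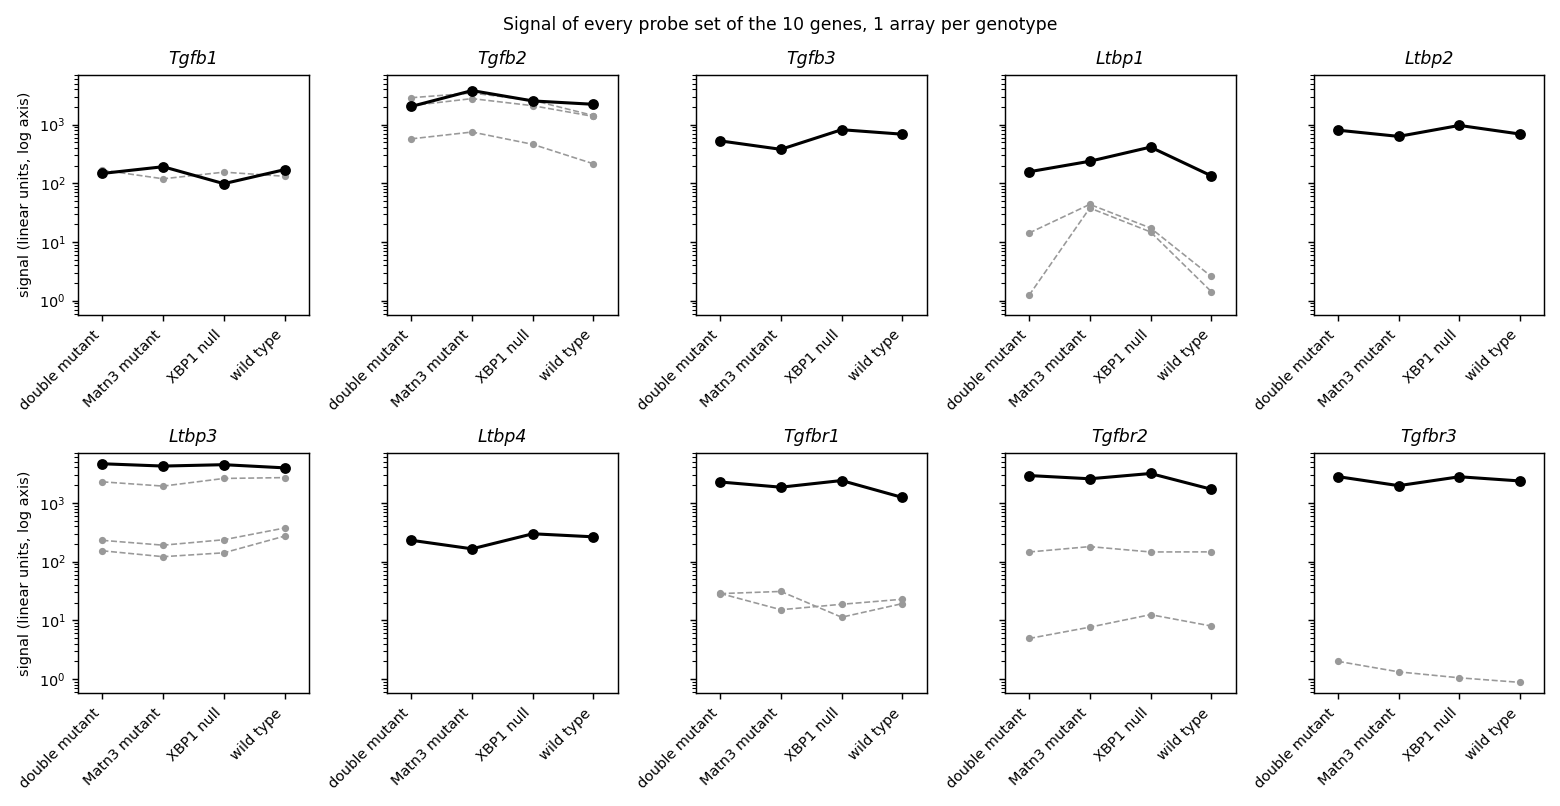
Signal (vertical log axis, linear units of the deposited values) of every probe set of the 10 genes on the 4 arrays, 1 per genotype. Solid black lines are the brightest probe set of each gene and dashed grey lines the others; lines join the arrays only to guide the eye, and there is no error bar because each point is 1 array. *Tgfb2* peaks in the *Matn3* mutant on all 4 of its probe sets, and *Ltbp1* peaks in the XBP1 null on its brightest probe set and in the *Matn3* mutant on the 2 dim ones.

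*Ltbp1*, which binds the latent forms of TGF-beta and anchors them in the matrix, varied most among the 10 genes, with a 3.08-fold range over the 4 arrays on its brightest probe set. This probe set (1448870_at) had signals of 157 in double mutant, 237 in *Matn3* mutant, 413 in XBP1 null and 134 in wild type chondrocytes. The XBP1 null array was the highest, and the double mutant and wild type arrays were close. *Ltbp1* was 1.77-fold higher in *Matn3* mutant and 3.08-fold higher in XBP1 null relative to wild type chondrocytes. It was 1.51-fold lower in double mutant relative to *Matn3* mutant and 2.63-fold lower in double mutant relative to XBP1 null chondrocytes. The first of these lies at the limit, and with log2(signal + 50) its log2 difference was -0.47, within 1.5-fold. The log2 difference in the double mutant was 2.22 below the sum of those of the separate mutants, a deviation of -2.22.

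The other probe sets of *Ltbp1* were dim. One (1447547_at) had signals of 14.2 in double mutant, 43.7 in *Matn3* mutant, 17.3 in XBP1 null and 2.59 in wild type chondrocytes, and the last (1419786_at) had 1.23, 37.9, 14.8 and 1.43 in the same genotypes. Here the *Matn3* mutant array was the highest, and the wild type array of the first and both the double mutant and wild type arrays of the second were below the 25th percentile of all signals, at 5.52. With lower signals raised to that percentile, the first was at least 7.91-fold higher in *Matn3* mutant and at least 3.13-fold higher in XBP1 null relative to wild type chondrocytes, and the second at least 6.86-fold and at least 2.68-fold higher. The first was 3.08-fold lower in double mutant relative to *Matn3* mutant chondrocytes and the second at least 6.86-fold lower. The 3 probe sets thus had the same sign in each of the 4 comparisons and differed in which mutant was the highest and in the size of the differences.

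RefSeq gives *Ltbp1* a pair of starts on chromosome 17, one upstream (chr17:75005279-75005578, plus strand) and one internal (chr17:75178531-75178830, plus strand), which begin a long and a short form of the transcript. The upstream window held 1 cAMP response element, 3 CCAAT boxes and 1 SMAD box, with 17 CpG dinucleotides, and the internal window held 2 SMAD boxes, with 7 CpG dinucleotides. From which start the measured signal came was not analysed.
*Ltbp1* upstream: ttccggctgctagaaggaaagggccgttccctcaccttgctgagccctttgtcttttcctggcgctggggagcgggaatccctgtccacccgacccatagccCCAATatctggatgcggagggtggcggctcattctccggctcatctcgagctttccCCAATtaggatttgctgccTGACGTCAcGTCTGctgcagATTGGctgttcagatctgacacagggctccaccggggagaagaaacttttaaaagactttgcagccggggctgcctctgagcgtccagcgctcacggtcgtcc
*Ltbp1* internal: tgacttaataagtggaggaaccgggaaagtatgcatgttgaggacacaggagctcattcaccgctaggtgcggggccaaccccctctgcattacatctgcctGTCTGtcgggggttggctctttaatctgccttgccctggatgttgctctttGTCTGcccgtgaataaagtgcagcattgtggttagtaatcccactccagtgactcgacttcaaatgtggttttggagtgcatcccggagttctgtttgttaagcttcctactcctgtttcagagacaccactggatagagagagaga

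The other LTBP genes differed less. *Ltbp2*, whose product associates with microfibrils and does not bind latent TGF-beta, had signals of 801 in double mutant, 628 in *Matn3* mutant, 966 in XBP1 null and 688 in wild type chondrocytes on its 1 probe set, and was within 1.5-fold in all 4 comparisons, with 1.40-fold higher in XBP1 null relative to wild type as the widest. *Ltbp4*, which also takes part in elastic fibre assembly, had 230, 165, 297 and 264 in the same genotypes. It was 1.60-fold lower in *Matn3* mutant relative to wild type chondrocytes and within 1.5-fold otherwise. Like *Tgfb3*, it was lower on both arrays with the mutation than on both without it.

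*Ltbp3*, which binds latent TGF-beta in bone and cartilage, had signals of 4629 in double mutant, 4230 in *Matn3* mutant, 4465 in XBP1 null and 3943 in wild type chondrocytes on its brightest probe set (1438312_s_at), which stayed within 1.13-fold in all 4 comparisons. The next (1418049_at) had 2278, 1928, 2603 and 2689 in the same genotypes and was also within 1.5-fold. Another (1437833_at) had 230, 190, 235 and 372, and the dimmest (1456189_x_at) had 152, 121, 141 and 271. Both of these were lower in *Matn3* mutant relative to wild type chondrocytes, by 1.96-fold and 2.24-fold, and in XBP1 null relative to wild type chondrocytes, by 1.58-fold and 1.92-fold. The brighter and the dimmer probe sets of *Ltbp3* therefore do not give the same answer. The suffixes of the brightest (_s) and of the dimmest (_x) both mark probe sets that can bind transcripts of other genes.

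The signalling receptors *Tgfbr1* and *Tgfbr2* had nearly the same pattern on their brightest probe sets. *Tgfbr1* (1420895_at), the type I receptor kinase, had signals of 2264 in double mutant, 1847 in *Matn3* mutant, 2398 in XBP1 null and 1236 in wild type chondrocytes. *Tgfbr2* (1426397_at), the ligand-binding type II receptor kinase, had 2916, 2570, 3160 and 1706 in the same genotypes. Wild type was the lowest array for both. In XBP1 null relative to wild type chondrocytes *Tgfbr1* was 1.94-fold and *Tgfbr2* 1.85-fold higher, and in *Matn3* mutant relative to wild type chondrocytes they were 1.49-fold and 1.51-fold higher, on either side of the limit of 1.5. In double mutant relative to *Matn3* mutant chondrocytes they were 1.23-fold and 1.13-fold higher, and in double mutant relative to XBP1 null chondrocytes 1.06-fold and 1.08-fold lower.

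The remaining probe sets of the receptors were dimmer and did not repeat this pattern. Those of *Tgfbr1* had signals of 28.4, 30.9, 11.3 and 19.2 (1420894_at) and 28.6, 15.1, 18.7 and 22.8 (1420893_a_at) in double mutant, *Matn3* mutant, XBP1 null and wild type chondrocytes. Both were lower in XBP1 null relative to wild type chondrocytes, by 1.71-fold and 1.22-fold, and both lay below the median intensity. Of *Tgfbr2*, a second probe set (1425444_a_at) had 145, 180, 146 and 146 in the same genotypes, with log2 differences of -0.31 to 0.30, and the dimmest (1422019_at) had only 4.89, 7.62, 12.5 and 7.97, which is 1.56-fold higher in XBP1 null and 1.05-fold lower in *Matn3* mutant relative to wild type chondrocytes. In XBP1 null relative to wild type chondrocytes, 1 of 3 probe sets of *Tgfbr1* and 2 of 3 of *Tgfbr2* were thus over 1.5-fold higher, the brightest of each gene among them.

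*Tgfbr3*, which encodes the coreceptor betaglycan, had signals of 2795 in double mutant, 1961 in *Matn3* mutant, 2781 in XBP1 null and 2357 in wild type chondrocytes on its brightest probe set (1433795_at). It was within 1.5-fold in all 4 comparisons, with the widest, 1.42-fold higher, in double mutant relative to *Matn3* mutant chondrocytes. The other probe set (1425620_at) was below the 25th percentile of all signals on all 4 arrays, so no fold is given.

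RefSeq gives 1 window for *Tgfbr2* (chr9:116175314-116175613, minus strand), with 2 CCAAT boxes, 1 SMAD box and 1 CCACG match. Of a pair of windows for *Tgfbr1*, the upstream one (chr4:47352972-47353271, plus strand) is shown, with 2 GC boxes, 2 CCAAT boxes and 3 CCACG matches. Each of the windows shown held a CCAAT box, found in 37.4% of all windows, except that at the internal start of *Ltbp1*. Among the windows not shown, those of *Tgfb1*, *Ltbp2* and *Ltbp3* held none, the other one of *Tgfbr1* held 1, and those of *Ltbp4* differed. None of the 12 windows held the unfolded protein response element core, which is rare, in 0.676% of all windows. The windows shown were chosen from the values of their genes, so these matches are a description.
*Tgfbr1*: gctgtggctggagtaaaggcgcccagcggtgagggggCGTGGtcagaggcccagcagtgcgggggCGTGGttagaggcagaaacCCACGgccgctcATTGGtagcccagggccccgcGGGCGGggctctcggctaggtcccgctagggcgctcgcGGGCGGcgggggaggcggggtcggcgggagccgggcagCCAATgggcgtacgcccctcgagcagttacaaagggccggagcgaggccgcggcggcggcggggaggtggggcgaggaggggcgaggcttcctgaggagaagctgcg
*Tgfbr2*: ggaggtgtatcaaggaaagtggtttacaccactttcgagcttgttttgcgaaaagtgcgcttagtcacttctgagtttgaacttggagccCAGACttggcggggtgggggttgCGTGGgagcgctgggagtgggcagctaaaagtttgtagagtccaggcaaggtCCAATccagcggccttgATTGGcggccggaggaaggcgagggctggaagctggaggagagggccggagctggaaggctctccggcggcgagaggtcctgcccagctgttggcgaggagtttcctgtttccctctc

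**Figure D3:**
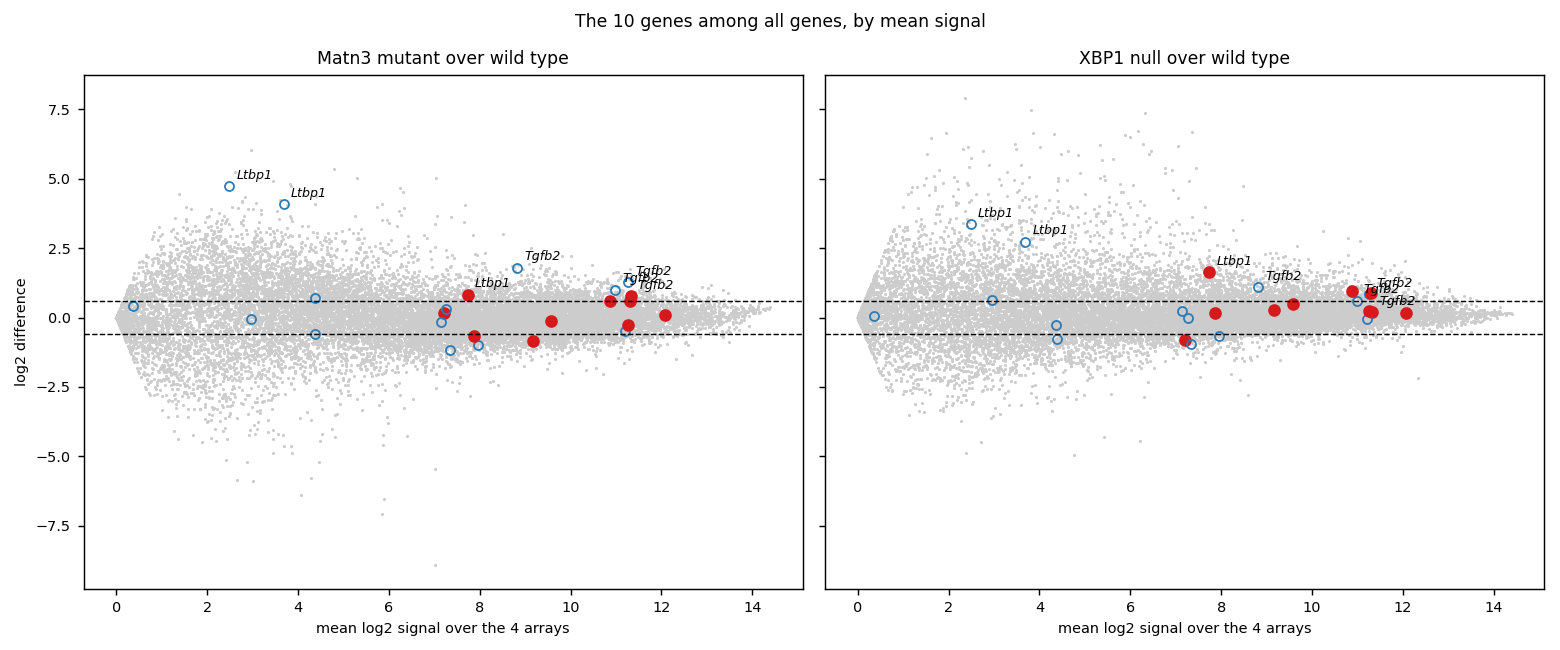
Log2 difference (vertical axis) against mean log2 signal over the 4 arrays (horizontal axis) in *Matn3* mutant (left) and XBP1 null (right) relative to wild type chondrocytes. Grey points are all 18193 genes on their brightest probe set, filled red points the brightest probe sets of the 10 genes, open blue points their other probe sets, and dashed lines 1.5-fold. The 2 dim probe sets of *Ltbp1* are drawn at their unbounded differences, although their wild type signals lie below the 25th percentile, in a range where differences of single arrays scatter widely, and the 4 probe sets of *Tgfb2* lie where most genes are within 1.5-fold.

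The 4 arrays allow 1 test, a limma fit with additive terms for the mutation and for XBP1 loss over all 45037 probe sets, in which the departure of the arrays from additivity, with 1 residual degree of freedom, serves as error. No probe set was called at an adjusted p below 0.05 for either effect (0% of all probe sets), and none of the 24 was among them. Unadjusted p-values below 0.05 were found for 3381 probe sets (7.51% of all) for the mutation and 2052 (4.56%) for XBP1 loss, and for 1 and 0 of the 24. This probe set was that of *Tgfb3*, with a log2 effect of the mutation of -0.74 (standard error 0.12, 95% interval -1.25 to -0.24, adjusted p = 0.635). *Ltbp4* had an effect of the mutation of -0.52 (standard error 0.16, interval -1.19 to 0.15, adjusted p = 0.635). For XBP1 loss *Tgfbr1* had 0.63 (standard error 0.247, interval -0.41 to 1.66) and *Tgfbr2* 0.54 (standard error 0.263, interval -0.56 to 1.63), both with an adjusted p of 0.819. *Ltbp1* and *Tgfb2*, the least additive of the 10, had standard errors of 0.783 and 0.390 and intervals for both effects that include 0. The intervals of the other genes except that of *Tgfb3* for the mutation also include 0.

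The genes whose pattern over the 4 arrays was nearest to that of *Ltbp1*, among 10982 genes at or above the median intensity, were *Zfp697*, *Cav1* and *Abcb1a*, at Euclidean distances of 0.09, 0.09 and 0.15 between centred log2 signals. *Cav1*, which encodes the caveolar coat protein caveolin-1, had signals of 2417 in double mutant, 3876 in *Matn3* mutant, 6763 in XBP1 null and 2053 in wild type chondrocytes. *Abcb1a*, which encodes a drug efflux pump, had 55.7, 95.4, 152 and 47.2 in the same genotypes, and *Zfp697*, a zinc finger gene, had 82.2, 121, 227 and 68.4. Nearest to *Tgfb2* were *Riok2*, *Phxr4* and *Pinx1*, at distances of 0.17, 0.21 and 0.21. A pattern over 4 arrays can be matched by many genes, and these distances are a description.

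Of the other genes of the pathway, 81 of 88 listed in 6 groups were measured. Their counts past 1.5-fold stand beside the 21.2% higher and 19.3% lower of all genes in *Matn3* mutant, and the 23.3% higher and 11.5% lower in XBP1 null, each relative to wild type chondrocytes, or 13.2% and 17.6%, and 18.8% and 5.82%, of genes at or above the median intensity. Several of the lists are close to these shares. Among 13 genes of signalling inside the cell, 1 was over 1.5-fold higher and 1 lower in *Matn3* mutant, and in XBP1 null 2 were higher and none lower, each relative to wild type chondrocytes, at median log2 differences of 0.12 and 0.32. *Smad3*, the receptor-activated mediator, had signals of 1875 in double mutant, 1791 in *Matn3* mutant, 1692 in XBP1 null and 1191 in wild type chondrocytes, and was 0.59 and 0.51 higher on the log2 scale in those comparisons. *Tgif1*, a repressor of SMAD-driven transcription, was 1.30-fold and 1.58-fold higher, and *Smurf2*, a ubiquitin ligase that targets receptors and SMADs, 1.62-fold higher in XBP1 null relative to wild type chondrocytes. *Tab1*, an adaptor of the kinase TAK1, was 1.98-fold lower in *Matn3* mutant relative to wild type chondrocytes. Its signals were low, at 41.1 and 81.5 in these genotypes, the first below the array median of 43.8.

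Among 16 genes of latency, processing and activation, 4 were higher and 1 lower in *Matn3* mutant, and 4 higher and 2 lower in XBP1 null, each relative to wild type chondrocytes. Of the 13 at or above the median intensity, 2 were higher and 1 was lower in either comparison. *Itgav*, which encodes the integrin chain common to the receptors that release TGF-beta, had signals of 3341 in double mutant, 3745 in *Matn3* mutant, 4174 in XBP1 null and 2311 in wild type chondrocytes, and was 1.62-fold higher in *Matn3* mutant and 1.81-fold higher in XBP1 null relative to wild type chondrocytes. *Mmp14*, a membrane-bound protease, was 2.33-fold higher in XBP1 null relative to wild type chondrocytes, and *Mmp9*, a gelatinase, 1.93-fold lower. The *Mmp9* signals were low, at 47.8 in XBP1 null and 92.1 in wild type chondrocytes. *Plau*, which encodes urokinase, was 2.17-fold higher in *Matn3* mutant relative to wild type chondrocytes, and *Bmp1*, a procollagen and LTBP protease, 1.53-fold lower.

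Of 11 matrix partners of LTBPs and TGF-beta, 1 was higher and 1 lower in *Matn3* mutant, and in XBP1 null 3 were higher and none lower, each relative to wild type chondrocytes. *Fbln5*, which encodes the elastic fibre protein fibulin-5, had signals of 576 in double mutant, 735 in *Matn3* mutant, 922 in XBP1 null and 250 in wild type chondrocytes, 2.94-fold and 3.68-fold higher in these comparisons. *Aspn*, which encodes asporin, a cartilage proteoglycan that binds TGF-beta 1, was 1.94-fold lower in *Matn3* mutant and 1.69-fold higher in XBP1 null relative to wild type chondrocytes. *Tgm2*, a transglutaminase that crosslinks LTBPs to the matrix, was 1.61-fold higher in XBP1 null and *Emilin1*, an inhibitor of TGF-beta processing, 1.43-fold higher in *Matn3* mutant relative to wild type chondrocytes.

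Of 11 other receptors and coreceptors of the superfamily, 4 were higher and 3 lower in *Matn3* mutant, and 5 higher and 1 lower in XBP1 null, each relative to wild type chondrocytes. Of the 8 at or above the median intensity, 3 were higher and 1 was lower in *Matn3* mutant, and 4 higher and none lower in XBP1 null. *Acvr1*, a type I receptor of BMPs and activins, had signals of 3731 in double mutant, 4492 in *Matn3* mutant, 4405 in XBP1 null and 2292 in wild type chondrocytes, and was 1.96-fold and 1.92-fold higher in these comparisons. *Bmpr2*, a type II receptor of BMPs, was 1.85-fold higher in XBP1 null relative to wild type chondrocytes. *Eng*, which encodes endoglin, a coreceptor of endothelial cells, was 1.82-fold and 2.60-fold higher in *Matn3* mutant and XBP1 null relative to wild type chondrocytes. Its signals were 159 in double mutant, 98.1 in *Matn3* mutant, 140 in XBP1 null and 53.8 in wild type chondrocytes. In double mutant relative to XBP1 null chondrocytes *Eng* was 1.14-fold higher, and all 12 endothelial markers were over 1.5-fold lower. *Acvrl1*, another receptor of this list with a mean below the median intensity, was 2.41-fold lower in that comparison, at 30.6 and 73.9. The part of endothelial cells in these values was not tested. *Bambi*, a pseudoreceptor that inhibits TGF-beta and BMP signalling, had signals of 1813, 1197, 2783 and 3262 in double mutant, *Matn3* mutant, XBP1 null and wild type chondrocytes and was 2.72-fold lower in *Matn3* mutant relative to wild type.

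Of 12 activins, GDFs and antagonists, 2 were higher and 4 lower in *Matn3* mutant, and 4 higher and 2 lower in XBP1 null, each relative to wild type chondrocytes. Of the 9 at or above the median intensity, 1 was higher and 4 were lower in *Matn3* mutant, and 3 higher and 2 lower in XBP1 null. *Inhba*, which encodes the beta A chain of activin, had signals of 2403 in double mutant, 6473 in *Matn3* mutant, 7577 in XBP1 null and 2775 in wild type chondrocytes. Like *Ltbp1*, it was higher on both single mutant arrays than on the other two, 2.33-fold and 2.73-fold higher relative to wild type, and it was 2.69-fold and 3.15-fold lower in double mutant relative to *Matn3* mutant and XBP1 null chondrocytes. *Fst*, which encodes the activin antagonist follistatin, was 4.71-fold higher in XBP1 null relative to wild type chondrocytes and *Inhbb*, the beta B chain, 3.56-fold higher. *Inha*, the inhibin alpha chain, was 2.81-fold and 4.07-fold lower in *Matn3* mutant and XBP1 null relative to wild type chondrocytes, and *Lefty1*, a secreted inhibitor of Nodal, 2.32-fold and 2.40-fold lower. The *Inha* signals were low, at 39.4 in *Matn3* mutant, 27.2 in XBP1 null and 111 in wild type chondrocytes.

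Of 18 genes commonly induced by TGF-beta, 1 was higher and 4 were lower in *Matn3* mutant relative to wild type chondrocytes (median log2 difference -0.25), whereas 8 were higher and 1 was lower in XBP1 null relative to wild type chondrocytes, at a median of 0.51. In double mutant relative to *Matn3* mutant chondrocytes 5 were higher and none lower (median 0.43), and in double mutant relative to XBP1 null chondrocytes none was higher and 6 were lower (median -0.27). Over all genes 17.4% were higher and 9.03% lower in double mutant relative to *Matn3* mutant, and 16.6% higher and 16.9% lower in double mutant relative to XBP1 null chondrocytes. In these comparisons perichondrium and fibroblast markers were higher for 7 and 0 of 11 genes and lower for 0 and 3, endothelial markers higher for 9 and 0 of 12 and lower for 1 and 12, and smooth muscle and pericyte markers higher for 0 and 0 of 8 and lower for 2 and 4. Their part in the counts of induced genes was not tested. *Timp3*, a protease inhibitor of the matrix, had signals of 3090 in double mutant, 4072 in *Matn3* mutant, 6975 in XBP1 null and 2535 in wild type chondrocytes, 2.75-fold higher in XBP1 null relative to wild type. *Tagln*, a marker of smooth muscle and myofibroblasts, was 3.26-fold higher and *Cilp*, a cartilage matrix protein that antagonizes TGF-beta 1, 2.69-fold higher in that comparison. *Col1a1*, the alpha 1 chain of collagen I, was 1.91-fold lower in *Matn3* mutant relative to wild type chondrocytes, *Junb*, an AP-1 factor, 1.86-fold lower, and *Nox4*, an oxidase, 1.83-fold lower. The *Nox4* signals were low, at 40.1 in *Matn3* mutant and 73.4 in wild type chondrocytes. Of the 20 genes listed, 5 are also in the lists of perichondrium or smooth muscle markers, and none of these genes was called in the limma model.

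**Figure D4:**
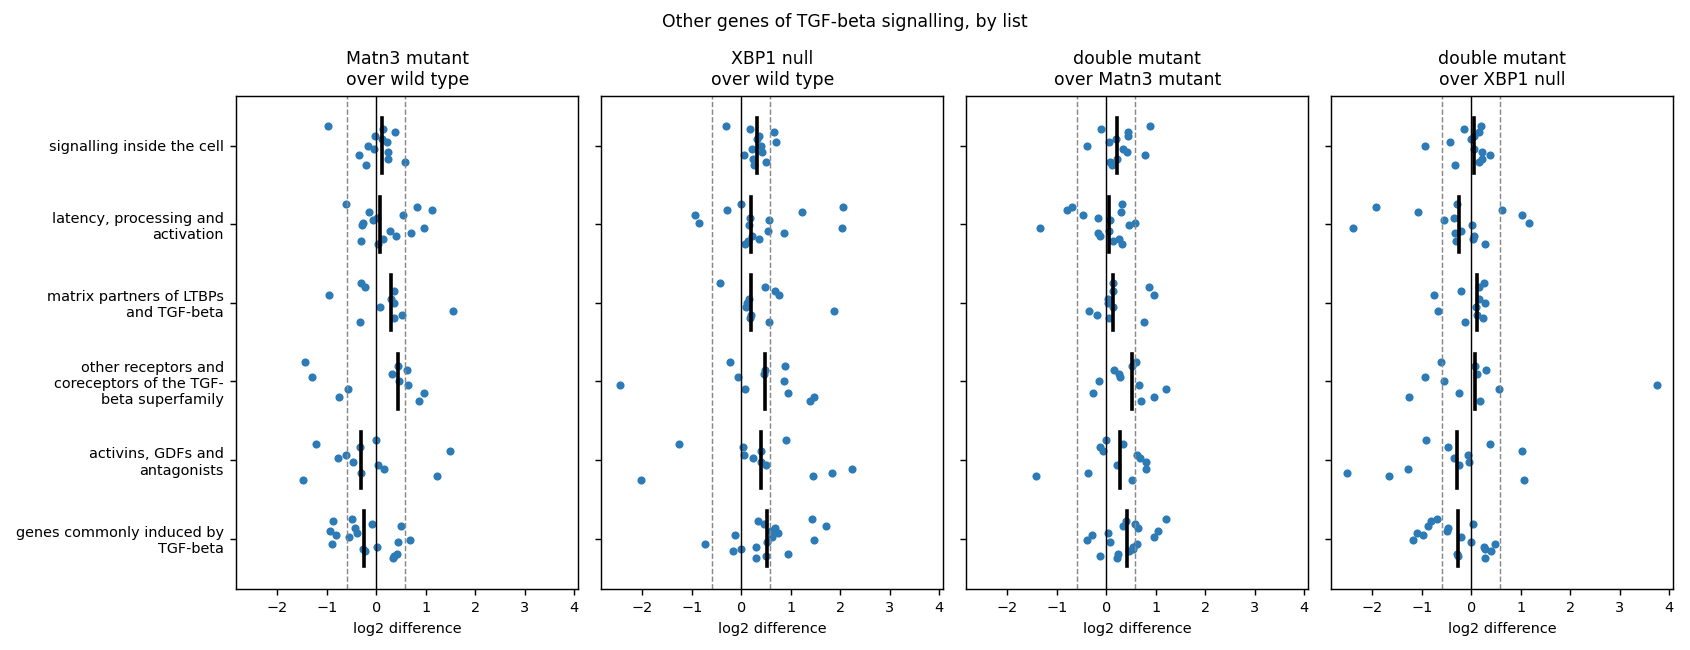
Log2 difference (horizontal axis) of each measured gene of the 6 lists of other TGF-beta pathway genes (rows), for each pair of arrays compared. Each point is 1 gene on their brightest probe set, black bars are list medians and dashed lines mark 1.5-fold; the median of the genes commonly induced by TGF-beta is -0.25 in *Matn3* mutant and 0.51 in XBP1 null relative to wild type chondrocytes.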

How the data were processed

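Costal chondrocyte RNA of 4 genotypes, pooled from 3 extractions each, was measured on 1 Affymetrix Mouse430_2 array per genotype. The authors deposited linear signal intensity values of 45037 probe sets. Their methods name Microarray Suite 5 for quality control and PPLR, with a fold change over 1.5, for differential expression. The methods of summarization and normalization, and the scale factors, were not given in the sources used here. PPLR needs errors of single probes and was not applied. Genotypes were taken from the sample titles. The number of arrays limits the precision.

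Signals below 1 were set to 1 and taken as log2 without further scaling. Genes were named from the platform annotation, in which 34945 probe sets name 1 gene, 932 several and 9160 none. Symbols updated through Entrez identifiers served only to match genes of the pathway and marker lists that the annotation symbol did not match. A difference over 1.5-fold between arrays was counted without a test. The additive model was fitted in limma 3.58.1 (R 4.3.3) with eBayes and an intensity trend across all probe sets, with Benjamini-Hochberg adjustment and a threshold of 0.05, and was tested on simulated data. Intervals of effects are 95% intervals of that fit. Other steps used matplotlib 3.10.9, pandas 2.3.3, numpy 2.4.6 and Python 3.11.15.

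The 10 genes, the 6 pathway lists and the 10 marker lists were chosen with earlier results of these data known. All members are named. Of each pathway list, the 3 genes with the widest difference in *Matn3* mutant and the 3 in XBP1 null relative to wild type, at or above the median intensity, are named. *Acvrl1* is named in addition, beside *Eng*. Genes of like pattern are the 3 nearest to *Ltbp1* and to *Tgfb2*. Of the listed genes, 7 of the pathway and 8 markers were not matched to a probe set and were not analysed here. Alternatives were median centring, quantile normalization, a floor at the 25th percentile, log2(signal + 50), a limit on intensity, the median over probe sets, probe sets without the suffixes _x, _s or _a, and eBayes without trend.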

Additional observations from a re-analysis of the deposited data

Results flagged for a closer look

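Probe sets were singled out where the *Matn3* mutation, or the loss of XBP1, went with differences of over 1.5-fold in opposite directions on the 2 backgrounds. With 1 array per genotype this contrast was not tested. The brightest probe set of *Ltbp1* (1448870_at) met this for both: it was 1.62 higher on the log2 scale in XBP1 null relative to wild type and -0.60 in double mutant relative to *Matn3* mutant chondrocytes, and it was 0.82 higher in *Matn3* mutant relative to wild type and -1.40 in double mutant relative to XBP1 null chondrocytes, with a departure from additivity of -2.22. A dim probe set of *Ltbp1* (1419786_at) met it for both and the other (1447547_at) for the loss of XBP1. Their computed departures of -8.32 and -4.36 are no sizes, since the double mutant and wild type signals of the first and the wild type signal of the second lie below the 25th percentile of all signals. With signals raised to that percentile they were -4.20 and -3.27. Of the receptors, the dim probe set 1420893_a_at of *Tgfbr1* met it for the mutation, with a departure of 1.20. The dim probe set 1422019_at of *Tgfbr2* met it for the loss of XBP1, with -1.28, but not with its double mutant signal raised to the 25th percentile, where it was 1.38-fold lower in double mutant relative to *Matn3* mutant chondrocytes and the departure was -1.11. The brightest probe sets of both receptors did not meet it.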

How the results depend on the processing

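No paired analysis was possible because each genotype has 1 array. The counts of the 10 genes past 1.5-fold and of called probe sets stayed within 1.5 times in 56 of 66 recomputations. This share overstates stability, since several settings could not, or could hardly, move a count. The floor and the limit on intensity leave all 10 representing probe sets unchanged, and median centring hardly shifts arrays of nearly equal medians. The limma counts of these genes were 0 in every fit. All 10 moves came from quantile normalization, log2(signal + 50), the median over probe sets and the suffix limit. With log2(signal + 50), 1 gene was lower in *Matn3* mutant relative to wild type, 0 in XBP1 null relative to wild type and 1 in double mutant relative to *Matn3* mutant chondrocytes, where *Ltbp1* was at -0.47. With the median over probe sets, 0 were lower in XBP1 null relative to wild type, 1 was lower in double mutant relative to *Matn3* mutant and 1 higher in double mutant relative to XBP1 null chondrocytes. Without probe sets of suffix _x, _s or _a, which left 9 genes because *Ltbp4* has no other, 1 was lower in *Matn3* mutant relative to wild type and 1 in double mutant relative to *Matn3* mutant chondrocytes. With quantile normalization, 1 was higher and 1 lower in double mutant relative to XBP1 null chondrocytes. Of the differences of single genes past 1.5-fold, 1 turned its sign, that of *Tgfbr1* in XBP1 null relative to wild type chondrocytes, at -0.28 with the median over its 3 probe sets, of which 2 are dim. No alternative fit in limma called any of the 24 probe sets, with smallest adjusted p-values of 0.49 to 0.751 for the mutation and 0.735 to 0.906 for XBP1 loss. Limited to the 22519 brighter probe sets, from the median intensity upwards, the fit called 13 probe sets for the mutation and none of the 18 of these genes.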
